A study of Mus musculus with 6 samples.

Results

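Guanylate-binding proteins (GBPs) are large interferon-induced GTPases of the dynamin superfamily. They gather on vacuoles that hold pathogens and on bacteria in the cytosol, break these membranes open together with the immunity-related GTPases (IRGs), and give caspase-11 and the inflammasomes access to microbial ligands. Their promoters answer to interferon-activated transcription factors such as IRF1, so the level of their mRNA is widely read as a sign of interferon signaling. Mouse GBP genes lie in a pair of clusters, on chromosomes 3 and 5.

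The 10 genes described here are Gbp2, Gbp2b, Gbp3, Gbp4, Gbp5, Gbp6, Gbp7, Gbp8, Gbp9 and Gbp10. They were found by gene name among the 53700 genes of the deposited expression table, where each name belonged to 1 identifier. All were measured by RNA-seq of SL4, a luciferase-expressing mouse line described as colorectal cancer, in 3 pLV-Control libraries (cells that do not overexpress SEMA6A) and 3 pLV-SEMA6A libraries (cells made to overexpress the semaphorin SEMA6A stably with a lentivirus). The study calls the sequenced control cells both SL4 and pLV-Control, and the sample titles do not say whether they carried an empty vector. The labels name no interferon treatment in either group. The study describes 1 stable pLV-SEMA6A line, so SEMA6A and the history of that line cannot be told apart. Sema6a itself was listed at 0 TPM in all pLV-Control libraries, while the pLV-SEMA6A libraries held 98.7, 118 and 112 TPM of it, the direction that the labels give. The colon epithelial markers went against the description of the line, since all 9 examined were below a mean of 1 TPM. They summed to 0.13 to 0.49 TPM in pLV-Control and 0.25 to 0.54 TPM in pLV-SEMA6A, and Epcam, Cdx1 and Cdx2 were listed at 0 in every library.

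The family is known to be induced through interferon elements close to its start sites, so the upstream sequences are shown first. RefSeq promoter windows of 300 bases (GRCm38.p6, 250 bases before each start site and 50 after) were matched for 5 of the 10 members, the chromosome 3 genes Gbp5, Gbp7, Gbp3, Gbp2b and Gbp2. Each of these 5 genes held at least 1 match to the core of the interferon-stimulated response element (ISRE), GAAANNGAAA on either strand, against 3.44% of all 32851 windows. The stretches below are 80 bases long, all lie on the plus strand, and show the ISRE of each gene with matches to either motif searched in capitals. All of the ISRE matches read on the minus strand, so the ISRE core appears here as its reverse complement.
Gbp5 (chr3:142496734-142496813): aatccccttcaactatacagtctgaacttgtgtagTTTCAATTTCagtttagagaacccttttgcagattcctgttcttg
Gbp7 (chr3:142530248-142530327): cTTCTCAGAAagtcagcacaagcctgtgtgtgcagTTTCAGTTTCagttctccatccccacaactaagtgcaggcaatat
Gbp3 (chr3:142559964-142560043): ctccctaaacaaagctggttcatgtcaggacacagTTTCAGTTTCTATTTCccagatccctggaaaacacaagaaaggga
Gbp2b (chr3:142594675-142594754): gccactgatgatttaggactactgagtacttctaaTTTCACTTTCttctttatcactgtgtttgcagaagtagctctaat
Gbp2 (chr3:142620569-142620648): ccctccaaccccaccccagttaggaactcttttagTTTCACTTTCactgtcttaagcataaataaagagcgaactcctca
Counting the base before the start site as −1, the match began at −53 in Gbp7, at −59 in Gbp2, at −137 in Gbp2b and at −165 in Gbp5. In Gbp3, 2 overlapping matches ran from −45 to −30, and a second RefSeq window of this gene, from another start site, held none. The gamma-activated sequence (GAS), TTCNNNGAA, an element of interferon gamma response genes that reads alike on both strands, was matched 2 times each in Gbp5 and Gbp7 and was present in 8.30% of all windows. A match describes the letters of these windows and was not tested for binding. Gbp2 and Gbp2b carry the same bases in their ISRE match, although, as described next, Gbp2 was an abundant member and Gbp2b was listed at or near 0.

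Expression was deposited as TPM, a unit corrected for transcript length and for the library total, so levels of different genes may be compared. In pLV-Control cells Gbp3 was the most abundant member, at 62.3, 64.4 and 63.6 TPM. In pLV-SEMA6A cells it was at 12.4, 11.5 and 12.6 TPM. The groups were far apart, and the group mean fell 5.23-fold, from 63.4 ± 1.08 to 12.1 ± 0.61 TPM (SD, n = 3 each).

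The other abundant genes of the chromosome 3 cluster were also lower, by less. Gbp7, a member that has been linked to host defense through oxidase assembly and autophagy, was at 25.8, 25.2 and 26.0 TPM across pLV-Control libraries but only at 7.19, 6.98 and 7.31 TPM across those of pLV-SEMA6A. Gbp2, a prenylated GBP known for coating the vacuole of Toxoplasma, was at 18.3, 18.7 and 21.1 TPM across pLV-Control libraries but only at 10.2, 7.89 and 9.73 TPM across those of pLV-SEMA6A. No library of one group reached the range of the other for either gene. The ratio of the group means was 3.58-fold for Gbp7 and 2.09-fold for Gbp2, which kept 47.9% of its control level, the highest share among the members with a level above 1 TPM in pLV-Control.

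Gbp5, a prenylated GBP that has been tied to assembly of the NLRP3 inflammasome, was a minor transcript. It was at 3.12, 3.53 and 3.55 TPM across pLV-Control libraries but only at 1.00, 0.98 and 0.82 TPM across those of pLV-SEMA6A. Gbp2b, the gene of the protein long called GBP1 in mice, was listed at 0.02 TPM in 1 pLV-Control library and at 0 in the other 5 libraries, so no fold change is given for it.

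The chromosome 5 members were less abundant, and some spread widely within pLV-SEMA6A. Gbp6 was at 9.40, 8.38 and 9.34 TPM across pLV-Control libraries but only at 0.33, 1.52 and 2.53 TPM across those of pLV-SEMA6A. Gbp9 was at 7.61, 6.65 and 7.14 TPM across pLV-Control libraries but only at 0.43, 0.41 and 0.54 TPM across those of pLV-SEMA6A. Gbp9 thus kept 6.45% of its control level, the lowest share of any member with a level above 0 in both groups, with tight values in both groups.

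The remaining chromosome 5 members were near or below 2 TPM in most libraries. Gbp10 was at 3.80, 2.05 and 1.75 TPM across pLV-Control libraries but only at 0.04, 0.68 and 0.15 TPM across those of pLV-SEMA6A. Gbp8 was at 1.74, 2.09 and 1.44 TPM across pLV-Control libraries but only at 0.14, 0.68 and 0.39 TPM across those of pLV-SEMA6A. Gbp4 was at 0.73, 1.33 and 0.79 TPM across pLV-Control libraries but only at 0.10, 0.22 and 0.14 TPM across those of pLV-SEMA6A. For all of these, every pLV-SEMA6A library lay below every pLV-Control library, although the values are low and the reads behind them are unknown. The same held for 34.7% of the 12510 genes that averaged 1 TPM or more.

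**Figure D1:**
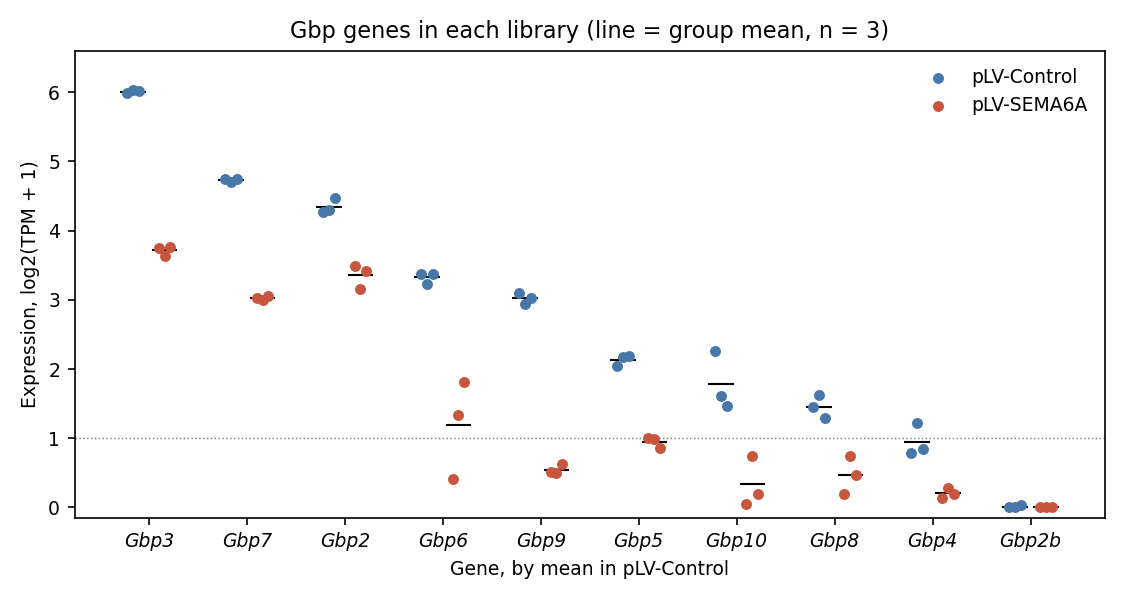
Expression of the 10 Gbp genes as log2(TPM + 1) on the vertical axis, with genes on the horizontal axis ordered by their pLV-Control mean. Each point is 1 library, black lines are group means (n = 3), and the dotted line marks 1 TPM. Every pLV-SEMA6A library is below every pLV-Control library in 9 of the 10 genes, and in 34.7% of the 12510 genes that averaged 1 TPM or more. Gbp2b lies at the bottom in both groups.

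Groups were compared with limma on log2(TPM + 1), a scale that understates the change of low genes, over the 12510 genes that averaged 1 TPM or more. A gene was called when its Benjamini-Hochberg adjusted p was under 0.05 and its log2 fold change exceeded 0.5 in either direction. Of the 10 members, 8 passed the filter and 8 were called lower in pLV-SEMA6A, where 10.8% of all genes tested were called lower. None was called higher (5.12% of all genes tested). The median log2 fold change was −1.57 over these 8 members and −0.06 over all genes tested. These figures describe the members that passed the filter and are no more than that, because only 4 of them, Gbp2, Gbp3, Gbp6 and Gbp7, had a mean of at least 1 TPM in both groups, and the other 4 were above it through pLV-Control alone.

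Among members above 1 TPM in both groups, the log2 fold change was −2.30 for Gbp3 (SE 0.05, adjusted p = 7.8e-07 from limma) and −1.71 for Gbp7 (SE 0.05, adjusted p = 2.6e-06 from limma). It was −2.14 for Gbp6 (SE 0.34, adjusted p = 0.00259 from limma) and −0.99 for Gbp2 (SE 0.10, adjusted p = 0.000466 from limma). The SE of Gbp6 was several times that of the others, and its 3 pLV-SEMA6A libraries differed among themselves. Gbp9 had the lowest log2 fold change, −2.48 (SE 0.11, adjusted p = 1.8e-05 from limma). Gbp5, Gbp10 and Gbp8 lay at −1.19, −1.44 and −0.99, with adjusted p-values from limma of 0.000482, 0.00754 and 0.00955. The size of the low members' values depended on the pseudocount. With 0.1 in place of 1, Gbp9, Gbp10, Gbp6, Gbp8 and Gbp5 had log2 fold changes of −3.70, −3.05, −2.90, −2.03 and −1.76, whereas Gbp3, Gbp7 and Gbp2 were at −2.38, −1.83 and −1.06. With all genes above 0 in at least 1 library in the fit, 9 of the 10 members were called lower against 5.58% of 24518 genes, and Gbp4 joined them at a log2 fold change of −0.75 (limma adjusted p = 0.0113, and 0.009 with a minimum mean of 0.1 TPM), whereas Gbp2b did not (adjusted p = 0.803). Every pLV-SEMA6A library was below every pLV-Control library in all 8 members tested, which was also true of 34.7% of all genes tested. Of the 2 members under the filter, it was true of Gbp4 and not of Gbp2b.

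The balance of all calls depended on scaling. Of all genes called, 67.8% were lower in pLV-SEMA6A, and 49.0% were after median centring of the libraries. The 8 members were called lower in both cases. With 3 libraries a group, the smallest p that exact permutation allows is 0.1. The limma p-values combine the spread of each gene with that of all genes tested, and nothing says that the libraries came from separate cultures. In bulk RNA, fewer cells that express a gene and less RNA per cell cannot be told apart.

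The family as a whole was compared by its summed TPM, which depends less than the single values on how reads common to several members were divided among them. The sum was 133, 132 and 135 TPM in pLV-Control and 31.8, 30.8 and 34.2 TPM in pLV-SEMA6A. The mean was 133 ± 1.25 TPM against 32.3 ± 1.74 TPM (SD, n = 3 per group), a difference of −101 TPM that left 24.2% of the control level. The difference was −31.2 TPM, leaving 29.4%, without Gbp3 and Gbp7, the most abundant members in pLV-Control.

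The ratio of summed levels between the groups was larger on chromosome 5 than on chromosome 3. Single members overlapped, since Gbp3 on chromosome 3 fell 5.23-fold and Gbp8 on chromosome 5 fell 4.36-fold. The chromosome 5 ratio also rests on low values, as Gbp9, Gbp8, Gbp10 and Gbp4 averaged 0.46, 0.40, 0.29 and 0.15 TPM in pLV-SEMA6A. The 5 chromosome 3 members summed to 112 TPM without SEMA6A overexpression and to 29.5 TPM with it, 3.79-fold lower, and the 5 chromosome 5 members to 21.4 and 2.77 TPM, 7.74-fold lower. Chromosome 5 genes made up 17.5%, 15.5% and 15.2% of the family sum in the pLV-Control libraries and 3.27%, 11.4% and 11.0% in the pLV-SEMA6A libraries. These shares did not overlap between the groups, but the pLV-SEMA6A values were widely spaced and 1 of them was far below the other two. With Gm43302, the near-copy of Gbp6 described below, added to the chromosome 5 genes, their sum was 7.01-fold lower, and their shares were 21.2%, 19.8% and 19.5% in pLV-Control and 9.20%, 14.5% and 12.5% in pLV-SEMA6A. Within the chromosome 3 cluster, Gbp2 made up a mean of 14.5% of the family sum in pLV-Control and 28.7% in pLV-SEMA6A, and Gbp3 made up 47.6% and 37.6%.

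By level, the order of the members in pLV-Control was Gbp3, Gbp7, Gbp2, Gbp6 and Gbp9, each above the next in every library, then Gbp5, Gbp10 and Gbp8, whose neighbours overlapped, then Gbp4 and Gbp2b. In pLV-SEMA6A, Gbp3 was still highest, Gbp2 stood above Gbp7, and Gbp6 overlapped with Gbp5. Gbp9 moved from the fifth place into a low group with Gbp8, Gbp10 and Gbp4, where neighbours overlapped.

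The size of the fall differed between the abundant members by more than the spread of the libraries. The log2 fold change of Gbp3 was below that of Gbp2 by 1.30 (difference −1.30, SE 0.09), and that of Gbp7 was below that of Gbp2 (difference −0.72, SE 0.10). Gbp3 also fell further than Gbp7 (difference −0.59, SE 0.03). The per-library ratios did not overlap between groups in any of these 3 pairs, which were chosen after their values were seen. For the members below about 10 TPM the order of fall depended on the pseudocount, and none is given.

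Gbp6 and Gbp10, which had the largest limma SEs of the members tested (0.34 and 0.29), also share most sequence with other genes. The wide spread of Gbp6 was in pLV-SEMA6A only, since in pLV-Control its level was 9.04 ± 0.57 TPM (SD, n = 3). The submitters' processing notes name RSEM, which divides reads that fit several genes by estimation. Of the 31-base stretches of the Gbp10 transcripts (GENCODE M21), 89.8% also occur in other genes, and 80.8% occur in Gbp6. For Gbp6 the figure was 74.2%, and 67.8% of its stretches occur in Gm43302, a protein-coding gene model inside the same cluster that is not named as a Gbp. By contrast, the figure was 3.05% for Gbp5, 4.15% for Gbp2b, 4.85% for Gbp2 and 5.64% for Gbp3, and it lay between 14.3% and 31.1% for Gbp4, Gbp7, Gbp9 and Gbp8.

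Gm43302 was at 6.26, 7.15 and 7.25 TPM across pLV-Control libraries but only at 2.08, 1.13 and 0.60 TPM across those of pLV-SEMA6A. Across the pLV-SEMA6A libraries it was highest where Gbp6 was lowest. Summed, Gbp6, Gbp10 and Gm43302 gave 19.5, 17.6 and 18.3 TPM in pLV-Control and 2.45, 3.33 and 3.28 TPM in pLV-SEMA6A, a 6.11-fold lower mean. The SD of this sum in pLV-SEMA6A was 0.49 TPM, against 1.10, 0.34 and 0.75 TPM for Gbp6, Gbp10 and Gm43302 alone. In pLV-Control it was 0.95 TPM, against 0.57, 1.11 and 0.55 TPM. The sum thus spread less than Gbp6 alone in pLV-SEMA6A, but more than Gbp6 alone in pLV-Control. The separate values of these 3 genes are uncertain because of the sequence they share, and how reads were divided among them was not tested.

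**Figure D2:**
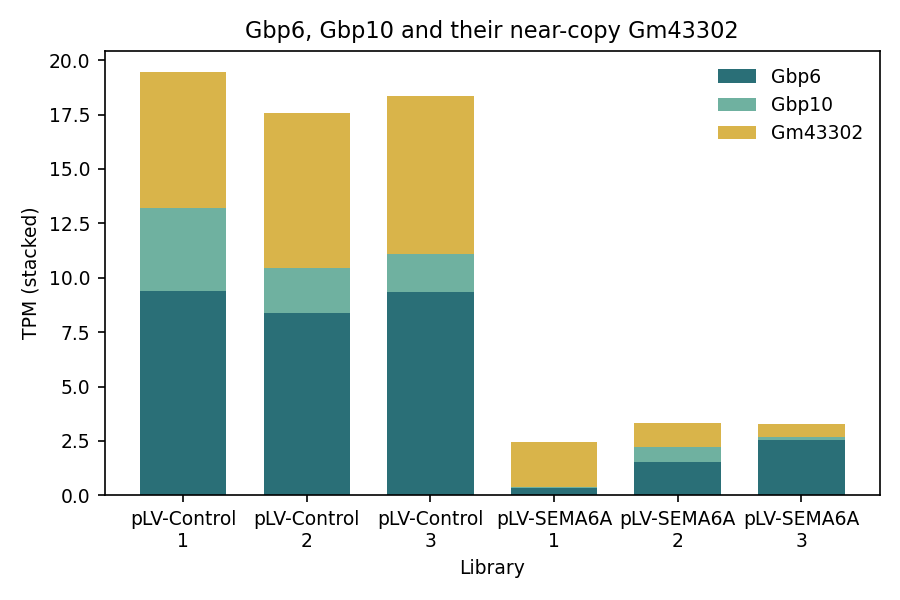
Stacked bars of TPM for Gbp6, Gbp10 and Gm43302 in each of the 6 libraries. The height of a bar is the sum of the 3 genes, between 17.6 and 19.5 TPM in pLV-Control and between 2.45 and 3.33 TPM in pLV-SEMA6A, while the parts of a bar differ among the pLV-SEMA6A libraries.

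The genes around the clusters were examined next, and over all genes tested 10.8% were called lower and 5.12% higher. On chromosome 3, in the order Gbp5, Gbp7, Gbp3, Gbp2b and Gbp2, 13 annotated genes other than Gbp genes and Gbp pseudogenes lie inside the cluster or within 250 kb of it (GENCODE M21), of which 5 were tested and 1 was called. That gene, Gm43802, is a processed pseudogene inside the cluster with which Gbp7 shares 10.8% of its stretches. It had a limma log2 fold change of −1.22 with adjusted p = 0.00406. On chromosome 5, in the order Gbp8, Gbp9, Gbp4, Gbp10 and Gbp6, 5 of 14 such genes were tested and 1 was called, the near-copy Gm43302 (log2 fold change −1.85, adjusted p = 0.00112 from limma).

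None of the 8 genes tested outside the clusters was called, a number too small to set them apart from the background. On chromosome 3 the log2 fold change was −0.07 for Pdlim5 on one side, and −0.26, 0.23 and −0.06 for Kyat3, Gtf2b and Pkn2 on the other. On chromosome 5 it was 0.04 for Zfp951 on one side, and 0.20, −0.04 and −0.16 for Lrrc8b, Gm42141 and Lrrc8c on the other. Gbp11, beyond Gbp6 and not among the members, was at no more than 0.26 TPM in any library, and the pseudogene Gbp2-ps was listed at 0 in all.

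**Figure D3:**
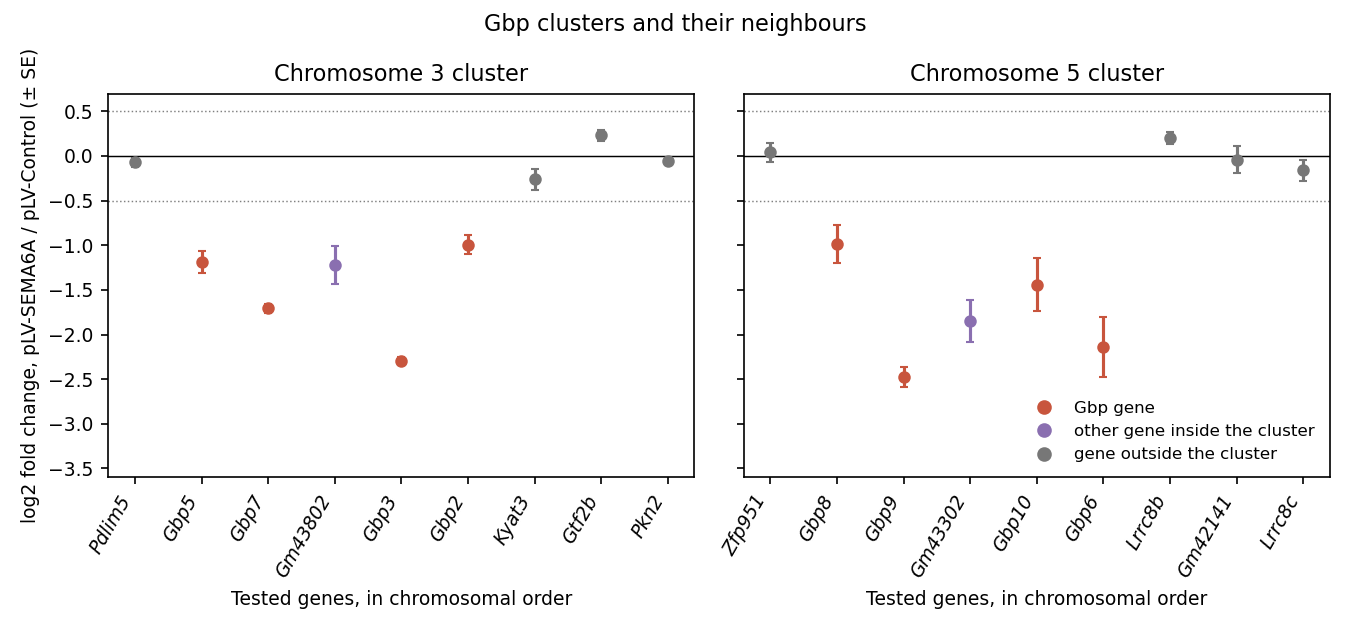
Log2 fold change with its SE for the tested genes of each cluster and its surroundings, in chromosomal order without scale. Dotted lines mark the minimum of 0.5 either way. Gbp genes and the genes inside the clusters lie between −2.48 and −0.99, and the genes outside lie between −0.26 and 0.23.

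Genes that act before or with the GBPs were taken from hand-written lists. In the path from interferon gamma to GBP induction, 14 of 17 genes were tested, 6 were called lower and none higher, with a median log2 fold change of −0.40. Over all genes tested, as given above, 10.8% were called lower and the median was −0.06. The transcription factor genes Stat2, Irf9 and Irf1, whose products act at the ISRE, lay at −1.71, −1.21 and −1.13. Usp18, a brake on the type I interferon receptor, had the lowest value of the list, −2.27, and Pias1, an inhibitor of STAT signaling, was called at −0.58 but not after median centring (−0.48).

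The receptor end of the path was not called. Ifngr1, Ifngr2, Jak1 and Jak2 had log2 fold changes of −0.23, −0.18, 0.19 and −0.32, and Irf2, a repressor of IRF1 targets, was at −0.41. Their adjusted p-values from limma were between 0.00231 and 0.0279, with changes under the minimum of 0.5. Ifng, the cytokine gene, and Irf8, a factor of myeloid cells, were listed at 0 in every library.

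The IRGs, partners of the GBPs on vacuoles, were examined next in a list that also held giant GTPases. The giant GTPase genes Gvin1 and Gvin2 were below the filter and not tested. Their means were 0.40 and 1.80 TPM in pLV-Control and 0.03 and 0.02 TPM in pLV-SEMA6A. Of 14 names, 9 were tested and 9 were called lower, where 10.8% of all genes tested were, with a median log2 fold change of −1.31. Tgtp1 and 9930111J21Rik1 had a mean of at least 1 TPM in pLV-Control alone, so these figures are a description. Irgm1, a regulator of the family, was at 87.6 ± 2.64 and 33.4 ± 2.05 TPM (SD, n = 3 per group), with a log2 fold change of −1.37, and Irgm2 and Igtp, of the same regulator group, were at −1.19 and −1.22. The effector genes Iigp1, Tgtp1 and Tgtp2 had values of −2.14, −2.40 and −2.02, and Ifi47 had −1.28. The last pair of this list, 9930111J21Rik1 and 9930111J21Rik2, was at −1.23 and −1.31. Irgb10 and Gm12250, both among the 14 names, are 1 gene, listed in the table as Gm12250 and below the filter.

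Genes of the machinery that places GBPs on membranes had list medians near 0. Over all genes tested the median was −0.06, with 10.8% called lower and 5.12% called higher. For ATG8 conjugation, which directs GBPs to vacuoles, 11 of 11 genes were tested and the median was 0.10. Of these 11, 4 were lower and 3 higher by limma adjusted p alone, among them Gabarapl1 at −0.43 and Atg3 at 0.43. Sqstm1, an adaptor for ubiquitin-marked cargo, was called lower (1619 ± 12.3 to 987 ± 3.83 TPM, SD, n = 3 each, log2 fold change −0.71), and Map1lc3a was called higher (0.55). For prenylation, by which a few GBPs are anchored, 8 of 8 genes were tested with a median of 0.12. The farnesyl and geranylgeranyl transferase genes Fnta, Fntb and Pggt1b were at 0.09, 0.16 and 0.18 and not called, and Fdps, a synthase of the prenyl donor, was called higher at 0.63. By limma adjusted p alone, 3 of the 8 were higher and 2 lower, among the latter Ggps1 at −0.47.

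Downstream, 5 of 12 inflammasome and lytic death genes were tested, 3 were called lower, and the median was −0.77. Over all genes tested, 10.8% were called lower and the median was −0.06. Casp4, the gene of caspase-11, which senses LPS that GBPs expose, went from 34.0 ± 2.58 to 11.4 ± 0.55 TPM (SD, n = 3 each), with a log2 fold change of −1.49 (limma adjusted p = 1.8e-05). Gsdmd, the pore former that it cleaves, was at −0.77, and Il18, a cytokine matured by caspase-1, at −0.98. Casp1 and Il1b were listed at 0 in every library.

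Among 16 other dynamin superfamily genes, 13 were tested, 2 were called lower and 2 higher, and the median was −0.04, beside 10.8% lower, 5.12% higher and a median of −0.06 over all genes tested. The called genes were Mx2, an interferon-induced antiviral GTPase, at −1.55, Dnm1 at −0.92, the mitochondrial fusion gene Mfn2 at 0.57 and the membrane remodeling gene Ehd2 at 1.23. The atlastins Atl2 and Atl3, which have a GTPase domain like that of the GBPs, were at −0.22 and 0.25 and not called.

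**Figure D4:**
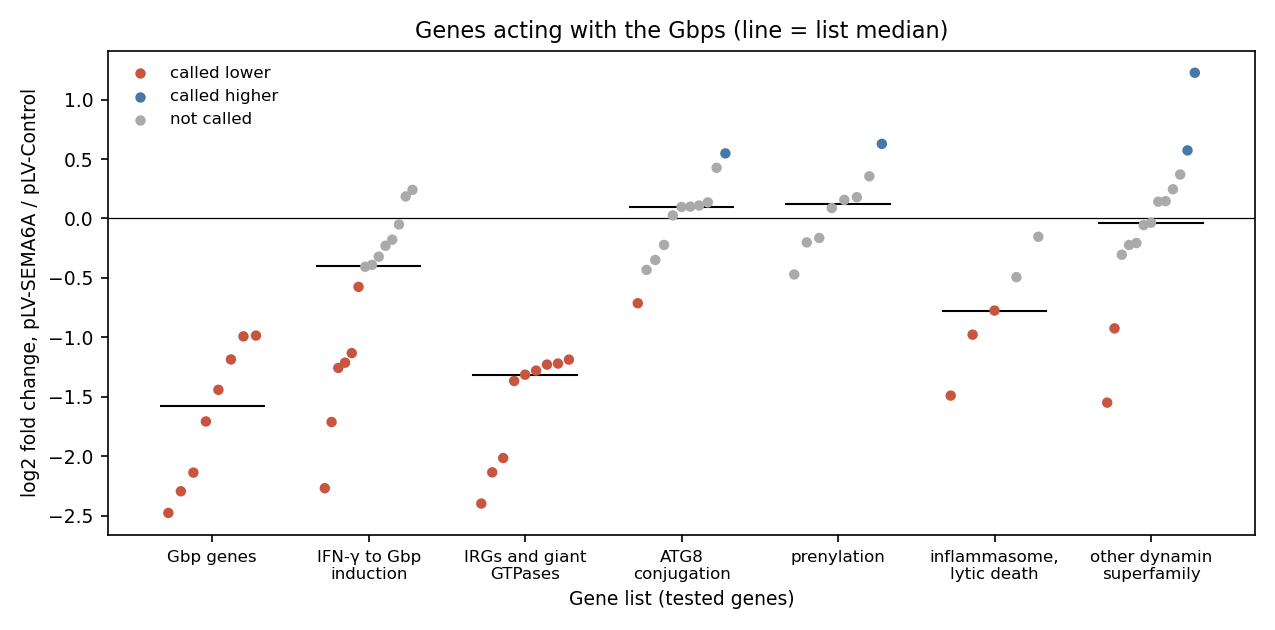
Log2 fold change of the tested genes of each list on the vertical axis, by list on the horizontal axis. Each point is a gene, colored by whether it was called lower, called higher or not called, and lines are list medians. The medians are −1.57 for the Gbp genes, −1.31 for the list of IRGs and giant GTPases and between −0.77 and 0.12 for the others. The giant GTPase genes Gvin1 and Gvin2 were not tested and are not shown.

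The 3 genes outside the family whose profile was most like the mean of the tested members were Arid5b, Rab11fip5 and Sat1, with Pearson correlations of 0.9999, 0.9998 and 0.9995 over the 6 libraries. Since 1655 genes had a correlation over 0.95 and the 6 libraries form 2 groups, the measure mostly reads the difference between the groups, and the log2 fold changes of the 3 genes were −0.67, −0.62 and −0.34.

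GBPs are highly expressed in immune cells, so markers of these cells were examined. Of 16 immune cell markers 1, Cd68, was above the filter and not called. The 16 summed to 1.22 to 2.75 TPM in pLV-Control and 0.94 to 1.76 TPM in pLV-SEMA6A. Adgre1 and Cd3e were listed at 0, while Csf1r lay between 0.10 and 0.64 TPM. Whether any immune cells added to the Gbp values was not tested. The 8 endothelial and fibroblast markers summed to 5.21 to 6.40 and 6.99 to 7.99 TPM, with Col1a1 called higher (1.02) and Pdgfra called lower (−0.63, adjusted p = 0.0219 from limma). The call of Pdgfra was lost, at log2 fold changes of −0.53, −0.57 and −0.63 and limma adjusted p-values of 0.0731, 0.0596 and 0.0511, without pLV-Control replicate 2, pLV-SEMA6A replicate 2 and pLV-SEMA6A replicate 3. With the replicate block its adjusted p was 0.0681.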

How the data were processed

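Poly-A RNA of 3 pLV-Control and 3 pLV-SEMA6A libraries was sequenced by Illumina technology. TPM per gene and library was deposited by the authors, with group means that were left aside. The submitters' processing notes name HISAT, Bowtie2, RSEM and the build mm39, with no versions. That the values are TPM was read from the table, whose libraries sum to 977400 to 986444. The depth behind a TPM value is unknown, so neither counting intervals nor detection limits are given.

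The study's count-based comparison needs counts, so the limma criterion it states elsewhere was used, with limma 3.58.1 (R 4.3.3, trend option, group as the only term) on log2(TPM + 1). The reference held here was GRCm38, so only gene order, neighbours and transcripts were taken from GENCODE M21, which holds 97.0% of the listed identifiers and all 10 members. Promoter sequences are those of RefSeq on GRCm38.p6.

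Every member is named. From each list, called genes and those acting directly with the GBPs are named, along with called neighbours and the 3 genes of most similar profile. Some listed genes are counted in their lists but not reported here by name. Members and lists were chosen with earlier results of these data known. The limma fit was tested on simulated data. Alternatives were other pseudocounts, filters, scalings, fold minimums, the replicate block, no trend, and each library left out.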

Additional observations from a re-analysis of the deposited data

How the results depend on the processing

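The count of members called lower was 8 with the replicate number as a block, a pseudocount of 0.1, either other scaling, no intensity trend or no minimum fold change, 9 with no filter or a minimum mean of 0.1 TPM, and 6 with a minimum log2 fold change of 1. Leaving out 1 library gave 6 to 8, because Gbp8 (without pLV-Control replicate 1 or 2) and Gbp10 (without pLV-Control replicate 1) then fell below the filter. In all 101 refits of a single member its call and direction held. Their sizes changed most with a pseudocount of 0.1, to −3.05 for Gbp10 and −2.03 for Gbp8. Same-numbered libraries showed no shared deviation (correlations of −0.02, −0.08 and −0.07), and the main fit did not pair them. These correlations cannot tell whether same-numbered libraries were handled together.

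The share of all genes called lower, 10.8%, was 5.58% with no filter, 28.2% with no minimum fold change, 2.43% with a minimum of 1, and 10.4% with the replicate block. The summed family difference of −101 TPM was −99.1 TPM after upper quartile scaling and −31.2 TPM without Gbp3 and Gbp7. With Gm43302 it was −107 TPM and with Gm43802 also added −113 TPM, alternatives chosen after seeing the data. Leaving out 1 library gave −102 to −100.3 TPM. Of the refitted list counts, 19 moved by more than 1.5 times and 146 did not, and 14 of the 19 moved with another minimum fold change. TPM gives no depth, which limits what can be said of members below 1 TPM.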
